A study of Mus musculus with 4 samples.

Results

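The genes described here are 10 transcriptional outputs of RAS-MAPK signalling: the PEA3-type ETS factors Etv1, Etv4 and Etv5, the dual-specificity phosphatases Dusp4, Dusp5 and Dusp6, the inhibitors Spry2, Spry4 and Spred1, and Phlda1. They were taken by symbol, 10 of the 35905 genes in the files, and all 10 were abundant enough to be among the 13718 genes tested. Etv4 drew attention through its difference in the comparison reported here, and the list was drawn up with that result known, so the values of the 10 genes in this comparison are a description. Counts of how many passed a test over all genes are given for reference, and nothing is read from them.

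The measurements are poly-A RNA sequencing of Lewis lung carcinoma (LLC), a line derived from a lung tumour of a C57BL mouse. The cells grew as subcutaneous flank tumours for 4 weeks and were then sorted as TdTomato-positive and CD45-negative. All hosts were C57BL/6 mice with floxed Padi4 alleles (Padi4fl/fl). The 2 WT libraries came from hosts without Cre (Mrp8Cre-), and the 2 PAD4-DN libraries from hosts with Mrp8Cre (Mrp8Cre+), a driver active in neutrophils, so the deletion was in the host and not in the sequenced cells. The labels do not say whether replicates came from separate animals, give no ages, and do not say whether tumours were pooled, so the errors given here measure the spread between these libraries only. In such bulk samples, fewer cells of a type and less RNA per cell cannot be told apart.

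Growth factor receptors load RAS with GTP, RAS activates the RAF, MEK and ERK kinases in turn, and ERK changes transcription in the nucleus. Some of the genes it induces pass the signal on, as the PEA3 factors do, and others oppose it: the DUSP proteins remove phosphate from ERK, and the Sprouty and Spred proteins act upstream at the level of RAS and RAF. Because these feedback genes follow ERK activity, their transcripts are commonly read as a measure of pathway output in tumours with mutant RAS or RAF. In cells with low ERK activity the repressor capicua holds several of them down, the PEA3 genes included.

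Values of a group are given throughout in the order replicate 1, replicate 2. The libraries held between 20036322 and 25327974 estimated counts. The keratins Krt8 and Krt18 were at 131 to 178 and 184 to 227 TPM (a level scaled for transcript length and for library size), while Epcam and Cdh1 stayed at or below 0.351 TPM. Of the 8 macrophage markers none was at 0 in all libraries, and their summed level was 45.5 and 50.1 TPM in the WT libraries and 96.3 and 13.3 in the PAD4-DN libraries. Ptprc, which encodes CD45, was at most 1.88 TPM. The 8 fibroblast markers summed to 4342 and 4878 TPM in the WT libraries and 6886 and 4388 in the PAD4-DN libraries, with Col1a1 at 3.67 and 127 TPM against 161.5 and 4.14. The 8 neutrophil markers summed to 43.2 and 7.54 TPM against 61.9 and 12.7, and the 8 erythroid and platelet markers to 137 and 17.6 TPM against 505 and 14.3. Endothelial markers summed to at most 47.7 TPM in any library, pericyte markers to at most 8.04 TPM, and lymphocyte and muscle markers to at most 0.993 TPM each. The 11 genes induced by tissue dissociation summed to 497 and 1554 TPM in the WT libraries and 2476 and 898 in the PAD4-DN libraries. WT replicate 2 and PAD4-DN replicate 1 thus stood together in these genes and in Col1a1, across the genotypes. Col1a2 (0.421 and 108 TPM against 129 and 1.24) and Postn (0.0996 and 64.1 TPM against 31.8 and 0.833) had this layout too. Col3a1 (3060 and 3398 TPM against 5100 and 2754) and Pdgfra (69.0 and 73.9 TPM against 93.0 and 66.6) were also highest in those libraries, by smaller margins. The remaining fibroblast markers were not. Dcn was at 840 and 692 TPM against 911 and 961, Lum at 251 and 273 TPM against 219 and 430, and Dpt at 118 and 141 TPM against 241 and 170. The part of these differences in the results below was not tested except where a value is given.

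Upstream sequences of the 10 genes were looked up by symbol in a table of RefSeq starts (GRCm38.p6), where 6 genes matched with 8 transcription starts. Upstream sequences of Etv4, Dusp4, Spry4 and Phlda1 were not analysed here. In the 250 bases before each start, letters of 5 motifs were searched on both strands: the ETS core GGAA, which sits in PEA3 binding sites, the CRE (TGACGTCA), the AP-1 motif (TGANTCA), the capicua octamers (TGAATGAA, TGAATGGA, TCAATGAA and TCAATGGA), and the CArG box bound by serum response factor. The CArG box was added after the sequences had been seen. None of these motifs contains another of them, but matches may touch or share end letters. The ETS core was present in 7 of the 8 windows, but 93.4% of all 32851 RefSeq windows of this length hold it. Capicua octamers occurred in the windows of Dusp6 and Spry2, against 3.19% of all windows. The window of Dusp5 held 2 CArG boxes, against 1.47% of all windows with any. No CRE or AP-1 letters were found in these windows, against 1.55% and 6.75% of all windows. Such matches are letters only and not shown to be bound. The stretches around the rarer matches are printed 5′ to 3′ on the strand of the gene, with the matched letters in capitals (for capicua the reverse complement of an octamer), because they show which feedback genes carry letters of a known ERK-dependent regulator next to their start. The Dusp6 stretch lies at chr10:99263187-99263230 (+), the Spry2 stretch at chr14:105896846-105896893 (-) and the Dusp5 stretch at chr19:53529043-53529102 (+), all GRCm38.p6.
Dusp6, capicua octamer: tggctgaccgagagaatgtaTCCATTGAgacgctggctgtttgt
Spry2, capicua octamer: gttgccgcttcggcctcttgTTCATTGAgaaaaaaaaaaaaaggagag
Dusp5, CArG boxes: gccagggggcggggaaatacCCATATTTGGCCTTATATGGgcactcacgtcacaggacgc

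All 10 genes were expressed in these tumour cells, and several were among the more abundant transcripts. On the TPM scale, averaged over the 4 libraries, Dusp6 had the highest level at 197 TPM (lowest library 188, highest 217), which put it at the 96.1th percentile of the genes tested. It lay above the next gene in every library. Spry2 followed at 109 TPM, then Spred1 at 73.0, Phlda1 at 68.8 and Etv1 at 67.3 TPM. These 4 neighbours overlapped in range over the libraries, though Spry2 was above Spred1 in every library. Spry4 at 45.8 TPM was below Etv1 in every library. Etv4 at 36.5 TPM, Dusp4 at 28.2, Etv5 at 17.4 and Dusp5 at 14.9 TPM completed the order, each overlapping its neighbour in range. Within every library, Spry4 was above Etv4 and Dusp4 above Etv5. Dusp5, the lowest, was at the 52.7th percentile. The library with the fewest counts for any of the genes held 501 counts (Dusp5, WT replicate 2), where counting error alone is 4.47%; for Etv4 the fewest were 635 counts, with a counting error of 3.97%.

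The comparison asks whether tumour cells differ in RAS-MAPK output when the host's neutrophils lack Padi4. By counts scaled for library size, Etv4 and, by less, Spry4 were lower in both PAD4-DN libraries. Etv1, Dusp6 and Phlda1 were higher in both, and the list as a whole did not move in a single direction. With edgeR's quasi-likelihood test over all genes, 0 of the 10 passed a Benjamini-Hochberg adjusted p of 0.05, against 0% of all 13718 genes. By limma-voom and by DESeq2, with and without the low-count filter, 0 of the 10 passed as well. At an unadjusted p under 0.05 edgeR had 1 of the 10, Etv4, and 2.65% of all genes, and nothing is read from this since Etv4 was chosen on this contrast. On the CPM scale (counts scaled by library size with TMM normalization), both PAD4-DN libraries lay above both WT libraries for 3 genes and below them for 2, against 15.4% and 17.4% of all genes. On the TPM scale 4 lay above and 1 below, against 22.9% and 10.5% of all genes. Groups that do not overlap in either direction made up 32.8% of all genes on the CPM scale and 33.4% on the TPM scale. The 10 genes were chosen with this contrast known, so nothing is read from these counts. The median log2 fold change, PAD4-DN minus WT, was 0.18 over the 10 genes and 0.01 over all genes, with 6 of the 10 above 0 and 51.5% of all genes above 0. The median was 0.03 without WT replicate 2, 0.03 without PAD4-DN replicate 1 and 0.08 without PAD4-DN replicate 2. It was 0.28 without WT replicate 1 and 0.08 with offsets for effective transcript length.

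**Figure D1:**
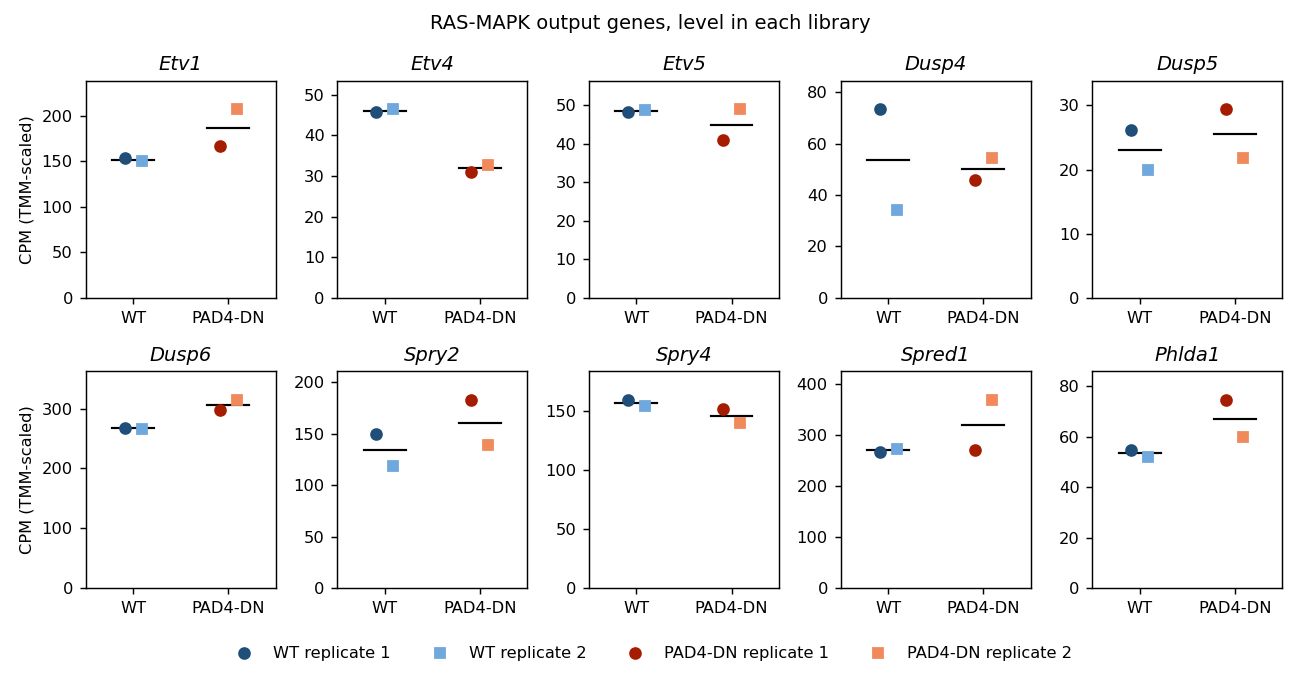
Level of each of the 10 genes in CPM scaled by TMM (vertical axes start at 0 and differ between panels) in the 2 WT and 2 PAD4-DN libraries; points are libraries and black bars are group means. Etv4 shows 46 CPM in both WT libraries against 31.0 and 32.8 CPM in PAD4-DN, while the WT libraries of Dusp4 lie far apart.

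The PEA3 factors are close paralogs that bind the same kind of ETS site and are induced by ERK together in many tissues. Etv4, a factor linked to invasion in several carcinomas, was at 45.8 and 46.4 CPM in WT hosts and 31.0 and 32.8 CPM in PAD4-DN hosts. The groups did not overlap, and the libraries of each group lay within 1.06-fold of each other. Mean Etv4 was 46.1 ± 0.453 CPM (SD, n = 2) for WT hosts and 31.9 ± 1.30 CPM (SD, n = 2) for PAD4-DN hosts. The log2 fold change was -0.53 (SE 0.12), which is 30.8% lower.

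Etv1, which acts downstream of receptor kinases in gastrointestinal stromal tumours and melanoma, was the most abundant of the PEA3 factors and differed in the other direction. It was at 153.6 and 150.3 CPM in WT hosts and 167 and 207 CPM in PAD4-DN hosts, without overlap and with a log2 fold change of 0.30 (SE 0.15). PAD4-DN replicate 2 stood apart from the other 3 libraries. Etv5, a factor needed for example in spermatogonial stem cells, was at 48.3 and 48.8 CPM in WT hosts and 40.9 and 48.9 CPM in PAD4-DN hosts. Its groups overlapped: only PAD4-DN replicate 1 was low, and the log2 fold change of -0.11 (SE 0.14) was 0.01 without that library.

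On the TPM scale the same order of groups held for Etv4, at 38.1 and 44.4 TPM in the WT libraries and 28.1 and 35.2 in the PAD4-DN libraries, but the gap was narrower. With limma-trend on log2(TPM + 1) its difference was -0.38 (SE 0.17). Across the alternatives and the libraries left out in turn, the log2 fold change of Etv4 stayed between -0.57 and -0.38. Etv4 was chosen on this contrast and its groups did not overlap, so its sign could hardly change. Nothing is read from this range.

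Etv4 reads were divided by kallisto among 12 transcripts, of which Etv4-201 and Etv4-202, both of 13 exons, held most. Their coding lengths, with the stop codon, are 1461 and 1443 bases. Etv4-201 was given 615 and 671 estimated counts in the WT libraries, compared with 411 and 339.6 in the PAD4-DN libraries. Etv4-202 was given 256 and 289.6 in the WT libraries, compared with 141 and 270.0 in the PAD4-DN libraries. These counts are not scaled for library size. Etv4-201 took 59.0% and 57.3% of the gene's counts in WT hosts and 64.8% and 43.4% in PAD4-DN hosts. The non-coding Etv4-207, of 882 bases, was at 7.96 and 13.3 TPM in the WT libraries and 5.51 and 11.3 in the PAD4-DN libraries. Etv4-201 and Etv4-202 both have a 5′ UTR of 315 bases and a 3′ UTR of 619 bases. Division of reads between such similar transcripts makes their shares uncertain. The PAD4-DN libraries thus shared the lower total, which kallisto divided differently in each. Whether the transcripts themselves differed in share was not tested.

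For Etv1 the transcript shares of PAD4-DN replicate 2 stood apart. Etv1-201, of 6576 bases with a 3′ UTR of 4715 bases, held 52.7% and 65.2% of the counts in WT hosts and 59.9% and 80.1% in PAD4-DN. Etv1-202, of 3981 bases, held 16.9% and 12.1% in WT hosts and 13.0% and 2.07% in PAD4-DN hosts. Etv1-211, of 1865 bases, held 9.49% and 6.38% in WT against 7.64% and 0.997%. A longer transcript gives more reads per molecule, and on the TPM scale, which allows for length, Etv1 was at 67.6 and 57.9 TPM in the WT libraries and 73.3 and 70.5 in the PAD4-DN libraries. PAD4-DN replicate 2 was no longer the highest library there. With effective length offsets in edgeR the log2 fold change of Etv1 was 0.12 (SE 0.15), and without PAD4-DN replicate 2 it was 0.14. The TPM values and the offsets rest on kallisto's uncertain division of reads among Etv1 transcripts. The part of transcript length in the difference was not tested. Etv5 was nearly all Etv5-201, at 99.9% and 90.1% in WT and 89.0% and 86.3% in PAD4-DN. Its Etv5-203 transcript was at 1.37 and 119.8 estimated counts in the WT libraries, compared with 91.9 and 158 in the PAD4-DN libraries, where division of reads between similar transcripts makes the values uncertain.

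**Figure D2:**
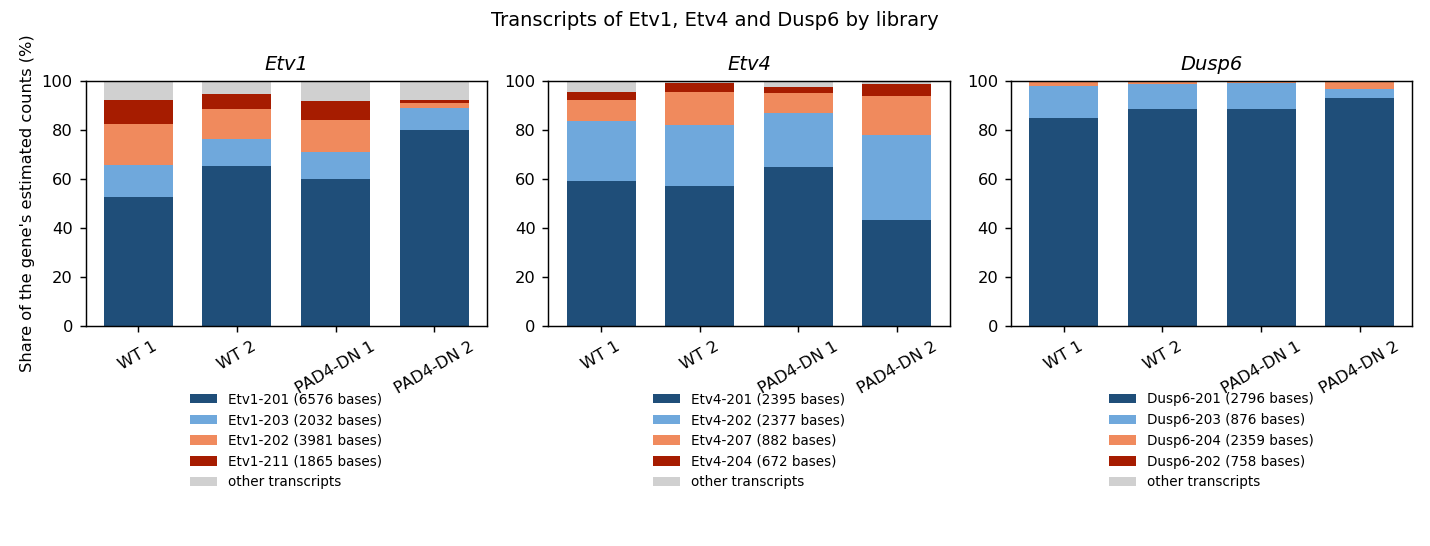
Share of each gene's estimated counts (percent, vertical axis) given by kallisto to its 4 most abundant transcripts and to the rest, for Etv1, Etv4 and Dusp6 in each library. In PAD4-DN replicate 2 the longest Etv1 transcript reaches 80.1% and the short Dusp6-203 transcript is at 3.41%.

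Among the phosphatases, Dusp6 is the cytoplasmic one most specific for ERK, Dusp5 acts on ERK in the nucleus, and Dusp4 is a nuclear phosphatase that also accepts other MAP kinases. Dusp6 was at 267 and 267 CPM in WT hosts and 298 and 315 CPM in PAD4-DN hosts. The WT libraries were nearly equal and both PAD4-DN libraries lay above them, with a log2 fold change of 0.20 (SE 0.13), or 14.8% higher. Part of its counts went to Dusp6-203, a non-coding transcript of 876 bases, which held 13.1% and 10.4% of the counts in WT hosts and 10.6% and 3.41% in PAD4-DN. On the TPM scale Dusp6 was at 190.6 and 188.3 TPM in the WT libraries and 217 and 191.5 in the PAD4-DN libraries, where PAD4-DN replicate 2 was next to the WT libraries. With effective length offsets the log2 fold change was 0.03 (SE 0.14). These values too rest on kallisto's division of reads, and the part of transcript length was not tested.

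Dusp4 had the widest spread of the 10 genes and has a single transcript. It was at 73.3 and 34.2 CPM in WT hosts and 45.7 and 54.4 CPM in PAD4-DN hosts. The WT libraries differed 2.14-fold and enclosed both PAD4-DN libraries, so its log2 fold change of -0.10 (SE 0.36) has no stable sign: leaving out WT replicate 1 gave 0.55 and leaving out WT replicate 2 gave -0.55. Dusp5 was at 26.1 and 19.9 CPM in WT hosts and 29.4 and 21.8 CPM in PAD4-DN hosts. In both groups replicate 1 was higher than replicate 2, the groups overlapped, and the log2 fold change was 0.15 (SE 0.22), or -0.08 without PAD4-DN replicate 1 and -0.03 without WT replicate 2.

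The Sprouty proteins bind components of the receptor and RAF steps and damp growth factor signalling, and Spred1 brings the RAS-GTPase activating protein neurofibromin to the membrane. Spry2 was at 150.2 and 118 CPM in WT hosts and 183 and 139 CPM in PAD4-DN hosts, with overlap between the groups and a log2 fold change of 0.26 (SE 0.19). As for Dusp5, the libraries numbered 1 were the higher of each group, by 1.27-fold in WT and 1.32-fold in PAD4-DN. Without WT replicate 2 the log2 fold change of Spry2 was 0.10, and without PAD4-DN replicate 1 it was 0.05. Spry4 was the steadiest, at 159 and 154 CPM in WT hosts and 151 and 139.8 CPM in PAD4-DN hosts. Both PAD4-DN libraries were slightly lower, with a log2 fold change of -0.11 (SE 0.12), and on the TPM scale the groups overlapped, at 46.1 and 46.5 TPM against 47.2 and 43.2.

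Spred1 was at 268 and 273 CPM in WT hosts and 272 and 370.0 CPM in PAD4-DN hosts. A single library, PAD4-DN replicate 2, was high, and the log2 fold change of 0.25 (SE 0.18) was 0.01 without it and 0.45 without PAD4-DN replicate 1. Its main transcript has 6016 bases, and in PAD4-DN replicate 2 long genes were somewhat higher as a class: over the 2484 genes tested with a mean effective length above 4000 bases, that library lay 0.05 above the mean of the 4 libraries (median, log2 CPM), and 0.06 below it over the 4231 genes under 1500 bases. Spred1 in that library was 0.34 above its mean. On the TPM scale it was at 62.7 and 66.5 TPM in the WT libraries and 69.7 and 93.3 in the PAD4-DN libraries.

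Phlda1, a pleckstrin homology-like protein induced by ERK and used in published RAS-MAPK activity scores, was at 54.7 and 52.1 CPM in WT hosts and 74.7 and 59.8 CPM in PAD4-DN hosts. The groups did not overlap, and PAD4-DN replicate 1 was the higher by 1.25-fold within its group. The log2 fold change was 0.33 (SE 0.15), with 0.16 without PAD4-DN replicate 1 and 0.49 without PAD4-DN replicate 2. It was the highest of the 10, and on log2(TPM + 1) with limma-trend it was 0.42 (SE 0.18).

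**Figure D3:**
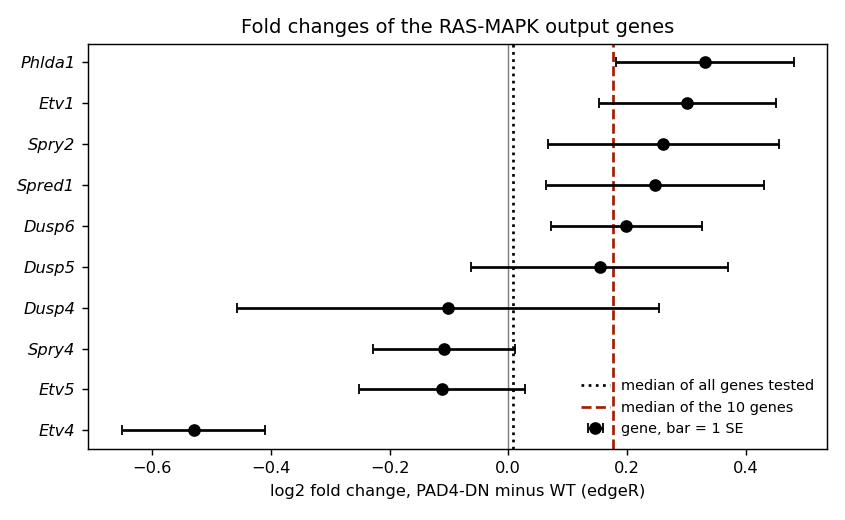
Log2 fold change (PAD4-DN minus WT, edgeR, horizontal axis) of each of the 10 genes with 1 standard error. Etv4 lies at -0.53 and the other 9 between -0.11 and 0.33; the dotted line is the median of all genes tested (0.01) and the dashed line that of the 10 genes (0.18).

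The 10 genes varied little between the WT libraries, apart from Dusp4, Dusp5 and Spry2. The median absolute difference between the WT libraries was 0.04 on the log2 scale, against 0.18 over all genes tested. Between the PAD4-DN libraries it was 0.28, against 0.26. The genes tested include genes with far fewer counts, where counting error is larger, and genes of matched level were not compared. The highest library was WT replicate 1 for 2 genes, WT replicate 2 for 1, PAD4-DN replicate 1 for 3 and PAD4-DN replicate 2 for 4. Over all 13718 genes tested these counts were 3017, 3054, 3796 and 3851. The lowest was WT replicate 2 for 6 of the 10 and for 2883 of all genes tested. With 10 genes chosen on this contrast, nothing is read from these counts.

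The immediate early genes, which ERK also induces but which tissue dissociation raises as well, did not share this layout. Fos was at 114 and 540.4 CPM in WT hosts and 866 and 286 CPM in PAD4-DN hosts, and Egr1 at 62.9 and 248 CPM against 415 and 154. Of the 11 dissociation genes, 9 followed the library order of their summed level, lowest in WT replicate 1 and highest in PAD4-DN replicate 1. The order was taken from these same genes, so their agreement with it is partly built in. It was followed by 4.67% of all genes and by 0 of the 10 RAS-MAPK output genes. At that share, 0 of 10 is not read as a trait of the output genes. Dusp1, a phosphatase of the same family and itself an immediate early gene, was at 20.5 and 32.1 CPM in WT hosts and 77.4 and 25.7 CPM in PAD4-DN hosts, so that PAD4-DN replicate 1 stood alone.

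**Figure D4:**
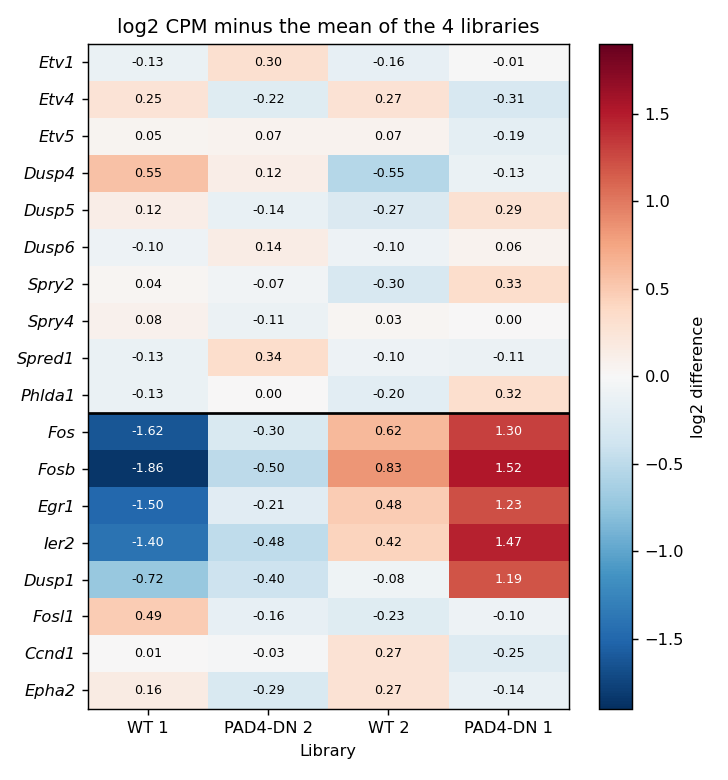
Log2 CPM of the 10 genes (above the line) and of 8 other ERK-induced genes (below it) in each library, minus the mean of the 4 libraries; columns are ordered by the summed level of the dissociation genes. Fos, Fosb, Egr1 and Ier2 run from between -1.86 and -1.40 in WT replicate 1 to between 1.23 and 1.52 in PAD4-DN replicate 1, while the 10 genes deviate from their mean by at most 0.55.

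The genes with the profile most like that of Etv4 over the 4 libraries were sought among 8466 other protein-coding genes with a mean of at least 10 CPM, by the root mean square distance between centred log2 CPM profiles. They were Aen (distance 0.01 on the log2 scale), Sesn2 (0.03), Dctpp1 (0.03), Tbrg4 (0.03) and Rgs12 (0.03). Aen was at 46.7 and 48.0 CPM in WT hosts and 32.1 and 34.4 CPM in PAD4-DN hosts, and Sesn2 at 29.6 and 30.5 CPM against 20.2 and 22.3. With 4 libraries such a match is a description. Of the other RAS-MAPK output genes, Etv5 (distance 0.22, rank 1639 of the 8466) and Spry4 (0.22, rank 1887) were the nearest. The rest ranked from 6645 (Dusp6, 0.36) to 8017 (Dusp4, 0.48). The 5 nearest profiles are so few of 8466 that the lack of an output gene among them is not read as a trait of these genes.

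The rest of the pathway was described by 7 lists with 113 tested of 130 genes. By edgeR 0 of the 113 passed the adjusted threshold, in either direction, and 0 passed by limma-voom or DESeq2. At an unadjusted p under 0.05 edgeR had 2 of the 113, Epha2 and Phlda3, where 2.65% of all genes had such a p. Both PAD4-DN libraries lay above WT for 10 of the 113 and below WT for 17, on the CPM scale, against 15.4% and 17.4% of all genes. In TPM the balance was the other way, with 26 above and 8 below, against 22.9% and 10.5% of all genes. The median log2 fold change of the 113 genes was 0.03.

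Of the 24 growth factor ligands 18 were tested, with a median of 0.07. The ligands with the smallest p were Pdgfc, at 55.4 and 63.5 CPM in WT hosts and 70.2 and 76.0 CPM in PAD4-DN hosts, and at low level Tgfa (1.49 and 2.50 against 1.22 and 1.05 CPM) and Fgf9 (4.79 and 2.46 against 7.27 and 4.65 CPM). Of 15 receptor tyrosine kinases 10 were tested, with a median of -0.05. On the CPM scale the groups did not overlap for 1 of them, Erbb3 (32.8% of all genes), which was at most 3.01 CPM in any library and overlapped on the TPM scale. In TPM, 2 lay above and 1 below both WT libraries (22.9% and 10.5% of all genes). The abundant receptors Fgfr1 (508 and 421 against 596 and 459 CPM) and Axl (451 and 578 against 473 and 406 CPM) overlapped between the groups on the CPM scale, while on the TPM scale Fgfr1 did not, at 203 and 179 TPM against 272 and 217.

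Transcripts of the RAS proteins and of the kinases below them showed no common direction. For the 27 tested RAS proteins, adaptors, exchange factors and GTPase-activating proteins the median was 0.01. On the CPM scale 3 lay above and 7 below both WT libraries (15.4% and 17.4% of all genes), and on the TPM scale 8 above and 2 below (22.9% and 10.5% of all genes). Nras was at 180.5 and 170.3 CPM against 167 and 187, and Hras at 19.6 and 20.9 CPM against 19.5 and 17.1. The smallest p in this list was that of the exchange factor Rasgrp3, at 2.73 and 2.93 CPM against 0.927 and 1.97, followed by the scaffold Shoc2 (101 and 97.7 against 107 and 112 CPM) and by Rras (27.5 and 26.8 against 19.9 and 26.4 CPM).

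The 19 tested kinases and scaffolds of the RAF-MEK-ERK cascade had a median of -0.04. Braf was at 82.0 and 83.4 CPM in WT hosts and 89.0 and 101 CPM in PAD4-DN hosts, a log2 fold change of 0.20 (SE 0.12). The MEK genes were Map2k1, at 121 and 106 CPM against 99.6 and 111, and Map2k2, at 40.8 and 42.6 CPM against 41.0 and 32.9. The ERK gene Mapk3 was at 93.2 and 80.8 CPM against 89.9 and 74.2. The ERK-activated kinase Rps6ka3 was at 109 and 113 CPM against 120 and 147, and the scaffold Ksr2 was at most 2.07 CPM.

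**Figure D5:**
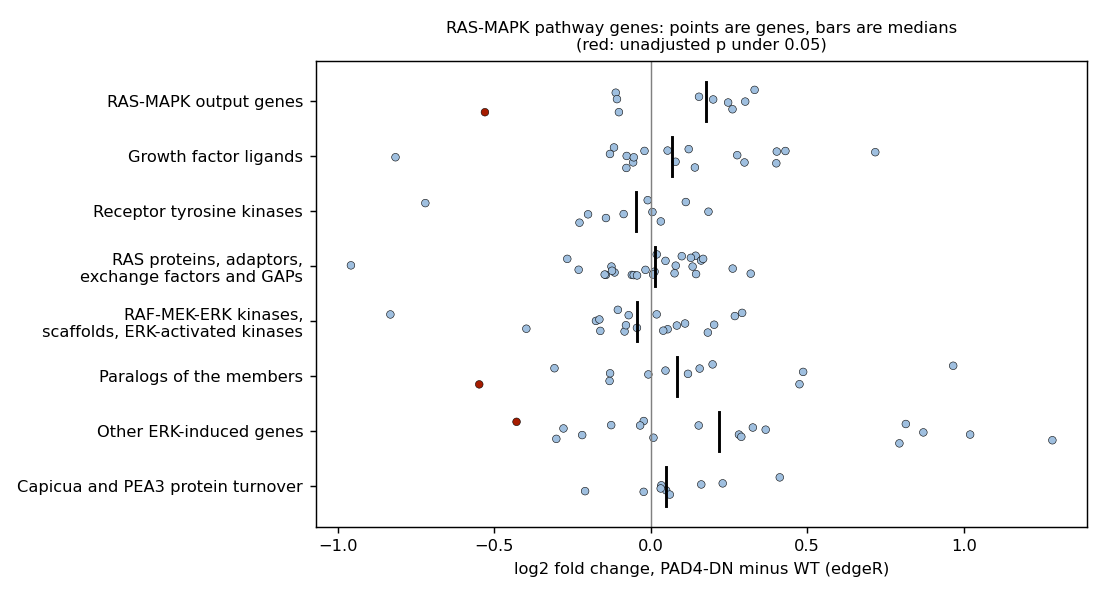
Log2 fold change (PAD4-DN minus WT, edgeR, horizontal axis) of the 10 output genes and of the tested genes of the 7 pathway lists; each point is a gene, black bars are list medians, and red marks an unadjusted p under 0.05 (Etv4, Phlda3 and Epha2). List medians lie between -0.05 and 0.22.

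Of the other outputs, the paralogs of the 10 genes had a median of 0.08 over 12 tested. Phlda3, a relative of Phlda1 that is a p53 target, was at 36.2 and 41.1 CPM in WT hosts and 28.9 and 24.0 CPM in PAD4-DN hosts, a log2 fold change of -0.55 (SE 0.16), opposite in sign to Phlda1. Spry1 was at 10.7 and 14.0 CPM against 21.2 and 13.1, with overlap. Over the 18 tested ERK-induced genes the median was 0.22. On the CPM scale 2 lay above and 3 below both WT libraries (15.4% and 17.4% of all genes), and on the TPM scale 3 above and 1 below (22.9% and 10.5% of all genes). This list holds Fos, Fosb, Egr1 and Ier2 with their dissociation pattern. Epha2, a receptor induced by ERK, was at 121 and 130.3 CPM in WT hosts and 98.1 and 88.4 CPM in PAD4-DN hosts, a log2 fold change of -0.43 (SE 0.12). Cyclin D1 (Ccnd1) was at 313 and 374 CPM against 261 and 305, and the AP-1 subunit Fosl1 at 128 and 77.9 CPM against 85.2 and 81.9, where WT replicate 1 alone was high. The chromatin factor Hmga2 was at 729.5 and 627 CPM against 772 and 876. Capicua itself (Cic) was at 91.7 and 94.5 CPM against 107.8 and 84.8, with overlap. Atxn1, a partner of this repressor, was at 33.1 and 29.1 CPM against 29.96 and 42.8. Of the genes for the turnover of PEA3 proteins, the ubiquitin ligase subunit Ddb1 was at 1606 and 1604 CPM against 1343 and 1432. Trib1, an adaptor of the COP1 ligase, was at 48.6 and 55.5 CPM against 93.6 and 45.1. The 9 genes of the list for capicua and PEA3 protein turnover had a median of 0.05.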

How the data were processed

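The 4 kallisto abundance tables (1 per library) were used. Kallisto and GRCm39 are credited to the submitters' processing notes, and its version, settings and transcript release were not given in the sources used here. The authors deposited raw estimated counts per transcript, which carry no normalization, and TPM values, in which each transcript is divided by its effective length and every library has one common total. Per the file headers each table also gives transcript length and effective length in bases. Transcripts were matched to GENCODE release M21 by identifier without version (116408 matched, 1078 did not and were left out, 0.483% to 0.493% of counts), and counts were summed per gene and rounded. GENCODE M21 and the RefSeq promoters are on an earlier build, so no measurement was placed on coordinates.

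PAD4-DN was compared with WT by edgeR 4.0.16 (R 4.3.3; TMM, filterByExpr, quasi-likelihood test, Benjamini-Hochberg at 0.05). Standard errors of the edgeR fits are the log2 fold change divided by the root of the F statistic. Those of limma-trend are the log2 fold change divided by the moderated t statistic. With 2 libraries a group an exact two-sided permutation test cannot give a p below 0.333. Alternatives used DESeq2 1.42.0 and limma 3.58.1, and the fits were tested on simulated data. Named genes are the 10 genes, the 3 tested genes with the smallest p of each pathway list with some core components, and the 5 profiles nearest to Etv4. The values of some of these core components are not reported here. The members and lists were chosen with earlier results of these data known. The labels name no molecular identifiers, so counting errors cover counting only. Counts of transcripts that share sequence rest on kallisto's estimate.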

Additional observations from a re-analysis of the deposited data

How the results depend on the processing

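None of the 10 genes and none of the other pathway genes passed an adjusted p of 0.05 under any alternative run, or 0.1 by edgeR's quasi-likelihood test. Over all genes, where edgeR called 0, DESeq2 called 10 of 21921 genes with at least 1 count and 11 of the 13718 kept by filterByExpr (the latter chosen after seeing the data), and edgeR without the low-count filter called 10; leaving out 1 library gave 0 to 2 calls, the 2 without WT replicate 2. The median log2 fold change of the 10 genes was 0.075 with effective length offsets and 0.032 to 0.28 with 1 library left out. Etv1, Etv4, Dusp6, Spry2, Spry4, Spred1 and Phlda1 kept their sign under all 13 alternatives. For Etv1, Etv4, Dusp6, Spry4 and Phlda1 the groups did not overlap on the CPM scale, so leaving out 1 library could hardly change it. Nothing is read from these signs. With 1 library left out, Etv4 ran from -0.57 to -0.49, Etv5 from -0.25 to 0.011, Dusp4 from -0.55 to 0.55 and Dusp5 from -0.076 to 0.37. Dusp4 also changed sign with limma-voom (0.0020) and on log2(TPM + 1) and log2(TPM + 0.1) (0.061 and 0.066), and the cause was not tested. Fits with 1 library in a group assume that it varies like the others. The deviations of same-numbered libraries from their group means correlated at -0.34 over 13718 genes. With 2 libraries a group this cannot decide whether same-numbered libraries were paired, and the labels do not say. With a replicate block 0 genes were called (309 at an unadjusted p under 0.05), the median of the 10 genes was 0.18 and Etv4 was at -0.53. With the crossed pairing, chosen after seeing the data, 0 were called (412). With 2 libraries a group, differences well beyond the standard errors given did not pass either. Etv4 at -0.53 (SE 0.12) had an adjusted p of 0.988 by edgeR's quasi-likelihood test. The lack of calls is therefore not read as a lack of differences.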
